A study of Rattus norvegicus with 10 samples.

Results

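The nuclear genes of mitochondrial oxidative phosphorylation were followed in a rat hepatic stellate cell line and its transfected derivatives. They were chosen by name: every gene whose symbol begins with Nduf, Uqcr, Cox4i, Cox5, Cox6, Cox7, Cox8, Sdh or Atp5, on probe sets that carry exactly 1 gene symbol, with 1 probe set per gene (the highest mean over the 10 arrays). This rule found 90 of the 14218 genes that such probe sets report. By name, 36 belong to complex I and 6 to its assembly factors, 4 to complex II and 4 to its assembly factors, 7 to complex III, 17 to complex IV and 16 to complex V, the ATP synthase. Cox7b2 was at the floor of the deposited values on all 10 arrays and was not tested, which left 89 members. Cox6c-ps1 entered through its symbol although it names a pseudogene, and 41 members have at least 1 named pseudogene, with which a probe set may share sequence.

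Complexes I to IV pass electrons from NADH and succinate to oxygen and, except complex II, pump protons across the inner mitochondrial membrane, and the ATP synthase uses the returning protons to make ATP. Core subunits of complexes I, III and IV and subunits of the membrane-embedded part of the ATP synthase are encoded by the mitochondrial genome, while the members described here are all nuclear, and several complex IV subunits exist as paralogous isoforms typical of liver, muscle or other tissues. Stellate cells are the vitamin A-storing pericytes of the liver, and they turn into contractile, collagen-producing cells when activated.

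Total RNA was hybridised to Affymetrix arrays from 5 lines of HSC-2, hepatic stellate cells of the Wistar rat grown in high-glucose medium with serum. The 2 control lines were the untransfected cells and cells with a scrambled control (GFPscr in the series text). The other 3 lines were the clones S1, S4 and S5, transfected to overexpress miR-146a, a microRNA known for restraining signals from innate immune receptors; each is a single clone, and no label gives the vector or promoter. Each line gave 1 array at passage 42 and 1 at passage 43, and the labels do not tell whether these came from separate cultures. A p-value for a single line therefore reflects the spread between passages within lines, pooled over the 5 lines, which may be technical. Mature miR-146a itself was not analysed here. Its sequence in RefSeq (GRCr8, chr10:28350053-28350074, minus strand) is shown because it defines the 3 clones, with the seed, bases 2 to 8, in capitals.
rno-miR-146a-5p: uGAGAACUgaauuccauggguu

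The values below are log2 intensities, with a floor at 4.32, and array medians lay between 97.7 and 104 intensity units. Collagen and filament genes of stellate cells were bright on all arrays (Col1a1 14.13 to 14.56, Vim 14.37 to 14.60), whereas Lrat, the enzyme of retinyl ester storage, was at the floor on all 10 and Gfap lay between 4.81 and 5.25. Of the 14 stellate cell markers with a probe set, Lrat was the only one at the floor on every array. The summed intensity of 9 hepatocyte markers was 452 to 486 on the clone arrays and 439 to 508 on the control arrays. Among the 9, only Cps1 was at the floor on every array, and Ttr was the brightest at 7.23 to 7.69.

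Most members were well above the floor, and the members varied little. Being above the floor does not by itself show expression. The hepatocyte marker Alb, at 4.94 to 5.26, was also above it on all arrays. Of the 90, 88 were above the floor on all 10 arrays, and 84 had a mean intensity of at least 100. The median range of a member over the 10 arrays was 0.42 on the log2 scale, against 0.56 for all 27520 tested probe sets. Among probe sets with a mean intensity of at least 100, the median ranges were 0.41 for the 84 members and 0.64 for all 15637. A range above 1 was found for 3 of 89 members (3.37%) and for 17.4% of all tested probe sets. Those 3 were Cox6a2, Ndufa4l2 and Ndufb8. The microarray probe sets differ in brightness for reasons other than transcript amount, so levels are compared only between arrays and never between genes.

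**Figure D1:**
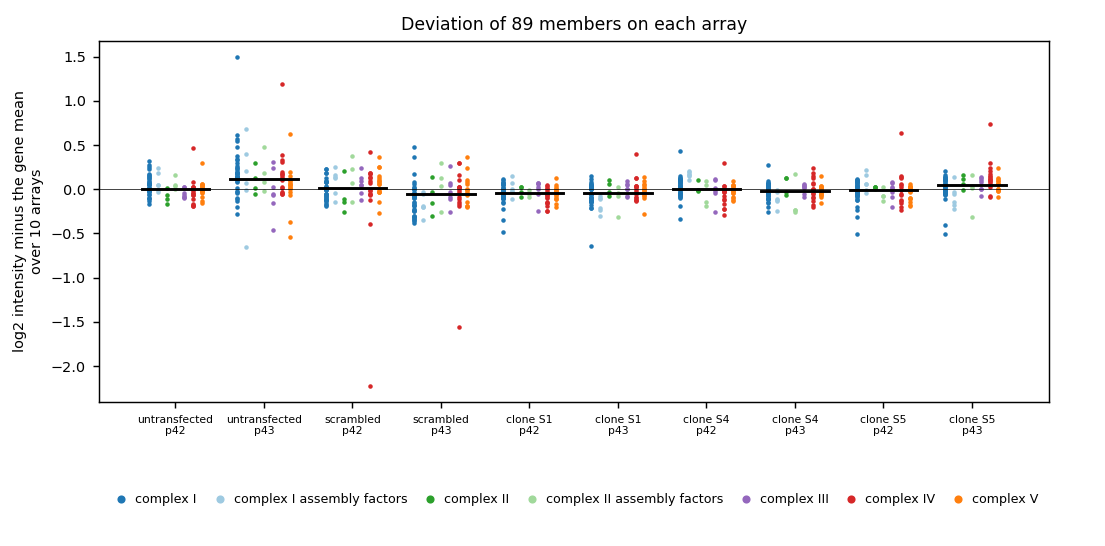
Deviation of each of the 89 tested members from its own mean over the 10 arrays (vertical axis, log2 intensity), by array, coloured by complex; black bars are medians over the members. The medians lie between -0.06 and 0.12, the highest on the untransfected passage 43 array, and the lowest points are Cox6a2 on both scrambled arrays.

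The first comparison asked whether clones overexpressing miR-146a expressed these genes at a different level than the controls did. No member was called: 0 of 89 passed an adjusted p of 0.05 (limma on 5 line means, 3 clones against 2 control lines, Benjamini-Hochberg over 27520 probe sets), while 0.898% of all probe sets did. At an unadjusted p under 0.05 there were 10 members, 11.2% of them, and 15.4% of all probe sets; 1 of the 10 was higher in the clones and 9 were lower. The median change over the members was -0.02, with 38 above and 51 below 0, and the median over all probe sets was -0.0084. Estimated changes lay within 0.25 of 0 for 78 of 89 members. In cultures measured whole, fewer cells that express a gene and less RNA per cell cannot be told apart. The 95% interval of the change stayed within 0.5 of 0 for 76 members and within 1 of 0 for 86. By complex, the median changes were -0.04 for complex I, 0.04 for complex II, 0.04 for complex III, -0.02 for complex IV and -0.01 for complex V. They were -0.07 for the complex I assembly factors and -0.19 for the complex II assembly factors.

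Each control line was also used as the only reference. That line then had no replicate, and the error came from the spread between the clones alone. In the calls of these fits, the choice of reference cannot be told apart from the loss of the spread between controls. Against the scrambled line alone, 7 of 89 members passed, 2 higher in the clones and 5 lower, beside 6.15% of all probe sets. Against the untransfected line alone, 5 of 89 passed, all lower, beside 10.8% of all probe sets. Sdhaf3 was the only member among both the 7 and the 5.

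**Figure D2:**
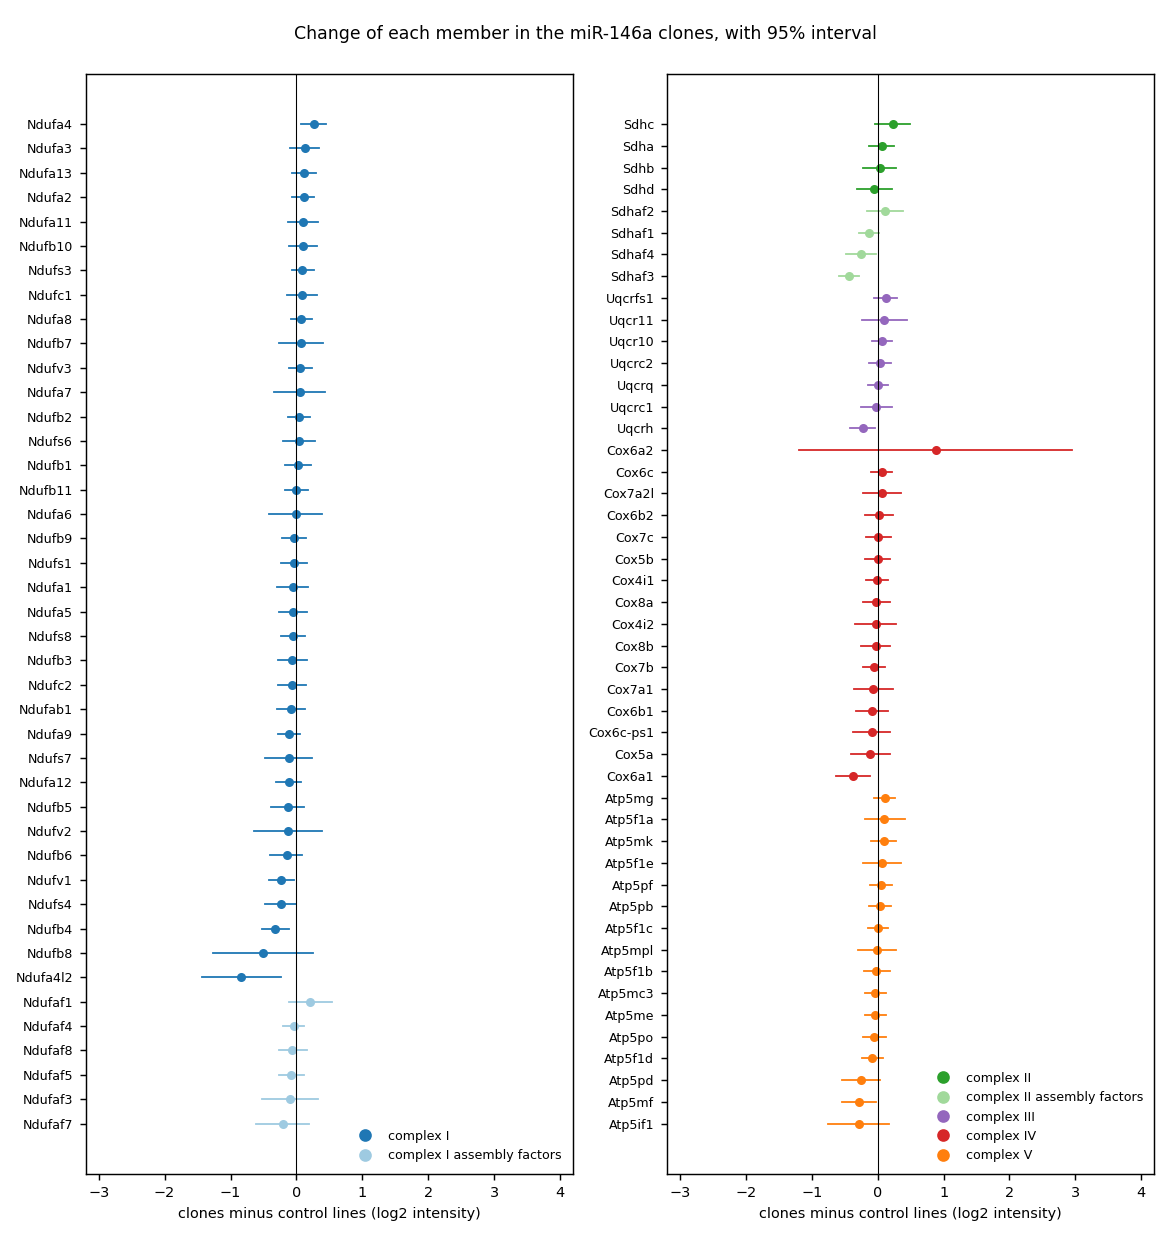
Change of each tested member between the 3 clones and the 2 control lines (horizontal axis, log2 intensity; points are estimates and bars 95% intervals from limma on 5 line means), grouped by complex. Most points lie within 0.25 of 0, Cox6a2 has by far the widest interval (-1.19 to 2.95), and Ndufa4l2 has the lowest estimate (-0.84).

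In 7 of 89 members (7.87%) all 6 clone arrays lay on one side of all 4 control arrays, as they did in 7.50% of all tested probe sets. Ndufa4 and Sdhc were higher in the clones. Atp5mf, Cox6a1, Ndufa4l2, Ndufv1 and Sdhaf3 were lower. Ndufv1 and Atp5mf, as well as Ndufb4 below, were picked out after their values were seen.

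Among complex I genes, Ndufa4l2 had the lowest change. It encodes a hypoxia-inducible paralogue of Ndufa4. Its log2 intensity was 6.99 at passage 42 and 8.21 at passage 43 in the untransfected line, and 6.60 and 7.08 in the scrambled line. In the clones it was 6.37 and 6.50 (S1), 6.38 and 6.52 (S4), and 6.21 and 6.31 (S5). The clone arrays lay in a narrow band below all control arrays, and the control arrays were spread widely, with untransfected passage 43 far above the others. The clone mean was 6.38 ± 0.104 (SD, n = 3 lines) and the control mean 7.22 ± 0.537 (SD, n = 2 lines), a change of -0.84 (95% interval -1.44 to -0.23, limma adjusted p = 0.207).

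Ndufa4, which carries a complex I name but is now counted as a subunit of complex IV, moved the other way by less. It read 11.97 and 11.78 in the untransfected line and 11.91 and 11.66 in the scrambled line at passages 42 and 43, against 12.00 to 12.19 on the 6 clone arrays. The sets of arrays did not overlap, with a gap of 0.03 between the highest control and the lowest clone array. The change was 0.26 (95% interval 0.07 to 0.45, limma adjusted p = 0.213).

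Ndufv1, the subunit that binds flavin and takes electrons from NADH, was at 10.97 to 11.13 on the control arrays and 10.68 to 10.84 on the clone arrays, a change of -0.23 (SE 0.07, limma adjusted p = 0.242). Ndufb4, an accessory subunit of the membrane arm, had clone line means that differed by no more than 0.02, and its change was -0.32 (SE 0.08, limma adjusted p = 0.178). Its clone and control arrays overlapped, and its passage 43 arrays were the higher ones in all 5 lines. It passed on 10 arrays when line was a random block and passage a replicate block, a fit that called 2 of 89 members and 4.38% of all probe sets. The correlation within lines in that fit was 0.21, so it counted the arrays of a line as largely separate.

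Complex II, succinate dehydrogenase, links the citric acid cycle to the chain. None of its 4 subunits passed. Sdha, the flavoprotein that oxidises succinate, changed by 0.06 (95% interval -0.13 to 0.25), and Sdhb, the iron-sulfur subunit, by 0.03 (95% interval -0.23 to 0.28). Sdhc, a membrane anchor, was at 11.78 to 11.91 on the clone arrays, 11.76 on both untransfected arrays and 11.49 and 11.45 on the scrambled arrays. The clone arrays were thus all above the control arrays, by 0.02 over the untransfected line and by more over the scrambled line; the change was 0.23 (95% interval -0.04 to 0.49, limma adjusted p = 0.384). Sdhd, the other anchor, changed by -0.05 (95% interval -0.31 to 0.22).

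The lowest adjusted p of any member in this comparison belonged to Sdhaf3, a factor that helps to mature the iron-sulfur subunit Sdhb. Its intensity was 7.92 and 8.36 in the untransfected line and 8.11 and 8.18 in the scrambled line. Clone S1 read 7.83 and 7.57, clone S4 7.74 and 7.65, and clone S5 7.91 and 7.57. All clone arrays were below all control arrays, but S5 at passage 42 and the untransfected line at passage 42 differed by only 0.02 before rounding. The means were 7.71 ± 0.0233 (SD, n = 3 lines) and 8.14 ± 0.00527 (SD, n = 2 lines), a change of -0.43 (95% interval -0.59 to -0.28, limma adjusted p = 0.0633). With 32 added to every intensity before log2, Sdhaf3 passed and was then the only member called, beside 0.592% of all probe sets.

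The other complex II assembly factors did not pass. Sdhaf1, which also serves Sdhb, changed by -0.13 (95% interval -0.29 to 0.02). Sdhaf2, which attaches flavin to Sdha, changed by 0.11 (95% interval -0.16 to 0.38), and Sdhaf4, which binds the flavinated Sdha, by -0.25 (95% interval -0.48 to -0.02, limma adjusted p = 0.287). Ndufaf1, an early complex I assembly factor, had the highest change among the assembly factors, 0.21 (95% interval -0.12 to 0.54).

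In complex III, the Rieske iron-sulfur protein Uqcrfs1 had the highest change, 0.12 (95% interval -0.05 to 0.29). The hinge protein Uqcrh, which aids electron transfer to cytochrome c, had the lowest, -0.23 (95% interval -0.42 to -0.04, limma adjusted p = 0.249). In complex V, the change was 0.11 (95% interval -0.05 to 0.27) for Atp5mg and -0.28 (95% interval -0.54 to -0.03) for Atp5mf, both subunits of the membrane-embedded part. Atp5mf was at 12.55 to 12.90 on the control arrays and 12.35 to 12.54 on the clone arrays, so that the gap between the sets was 0.01.

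In complex IV, the isoforms of subunit VIa had changes of opposite sign against the mean of both controls. Cox6a2 is the isoform of heart and skeletal muscle, and Cox6a1 the one of liver and most other tissues. Cox6a2 read 10.30 and 11.02 in the untransfected line and 7.61 and 8.27 in the scrambled line. In the clones it read 9.73 and 10.23 (S1), 10.13 and 9.98 (S4), and 10.47 and 10.57 (S5). The scrambled arrays lay far below the other 8, and the clone arrays overlapped the lower untransfected array and stayed below the higher one. The clone mean was 10.18 ± 0.294 (SD, n = 3 lines) and the control mean 9.30 ± 1.93 (SD, n = 2 lines), and the change of 0.88 (95% interval -1.19 to 2.95, limma adjusted p = 0.658) took its sign from the scrambled line. Against the untransfected line alone the change was -0.479.

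Cox6a1 was tighter. It was at 12.49 and 12.51 in the untransfected line, and 12.83 and 12.71 in the scrambled line. Clone S1 read 12.26 and 12.28, clone S4 12.19 and 12.23, and clone S5 12.28 and 12.33. All clone arrays were below all control arrays, and within the controls the scrambled line was the higher. The means were 12.26 ± 0.0478 (SD, n = 3 lines) and 12.63 ± 0.192 (SD, n = 2 lines), a change of -0.37 (95% interval -0.63 to -0.11, limma adjusted p = 0.198). On 10 arrays with line as a random block it passed (limma adjusted p = 0.0216), in a fit that called 2 of 89 members and 4.78% of all probe sets. Adding passage to that fit gave a limma adjusted p of 0.0369. The correlation within lines, estimated over all probe sets, was 0.0485, and 0.21 with passage. Both fits therefore counted the arrays of a line as largely separate, and the line is the unit of replication.

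None of the other isoform pairs passed. Cox4i1, the general form of subunit IV, changed by -0.01 (95% interval -0.17 to 0.15), and Cox4i2, its form in lung and under low oxygen, by -0.03 (95% interval -0.34 to 0.28). Cox6b1 changed by -0.08 (95% interval -0.33 to 0.16) and Cox6b2, the testis form, by 0.02 (95% interval -0.19 to 0.23). Cox7a1, the muscle form of subunit VIIa, changed by -0.07 (95% interval -0.36 to 0.23). Cox8a changed by -0.02 (95% interval -0.22 to 0.18) and Cox8b, the muscle form, by -0.03 (95% interval -0.25 to 0.19). Cox4i2, Cox6b2, Cox7a1 and Cox8b were dim on all arrays, between 4.32 and 6.26, near the floor.

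**Figure D3:**
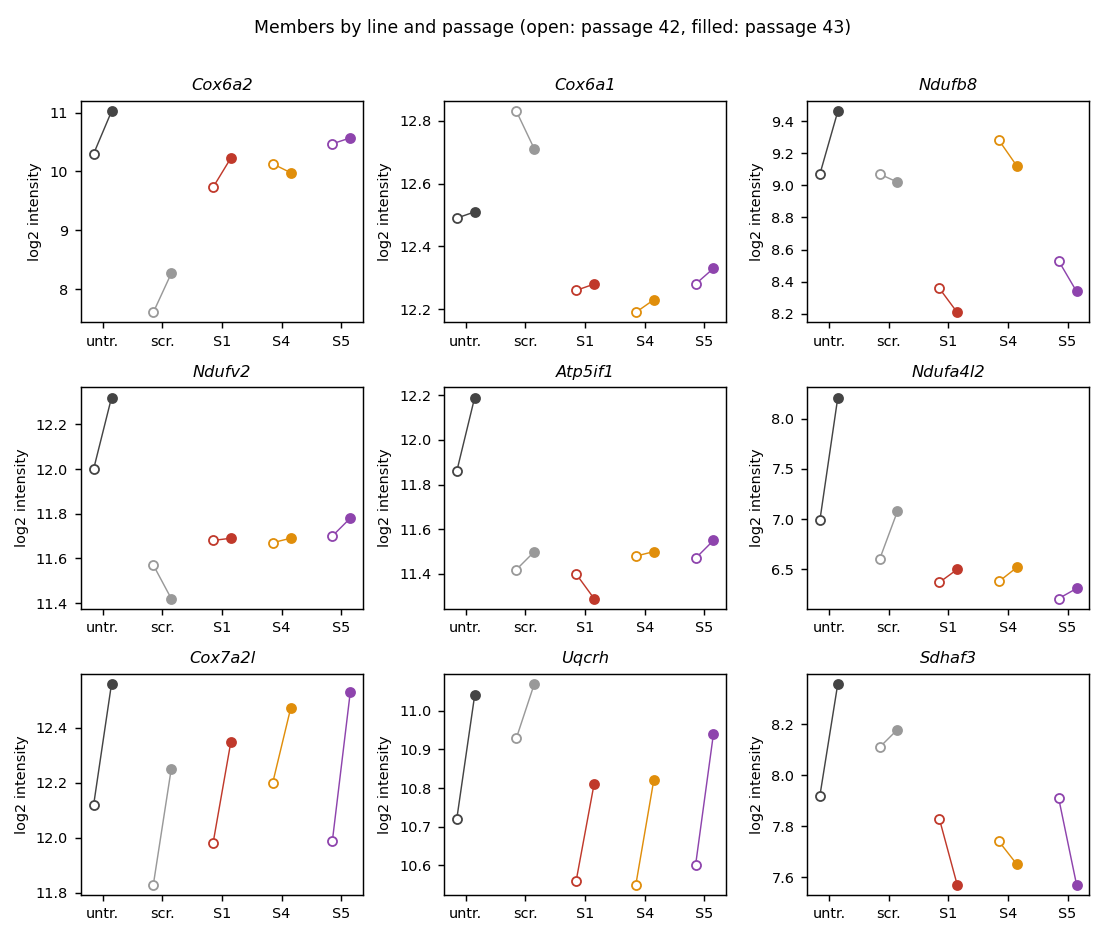
Log2 intensity (vertical axes, a separate scale for each gene) of 9 members in the untransfected (untr.) and scrambled (scr.) lines and clones S1, S4 and S5, with open points for passage 42, filled points for passage 43 and lines joining the passages. The scrambled line is lowest for Cox6a2 (7.61 and 8.27), S1 and S5 are lowest for Ndufb8, and Cox7a2l and Uqcrh are higher at passage 43 in every line.

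The clones were also compared one at a time with the mean of both control lines, on 10 arrays with the spread between passages as the error. These comparisons share the control arrays. In S1, 0 members rose and 2 fell. S4 had 0 that rose and 1 that fell, and S5 had 1 of each. Those shares of 2.25%, 1.12% and 2.25% of 89 members stood beside 3.84%, 3.12% and 2.97% of all probe sets.

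Ndufb8, an accessory subunit of the membrane arm of complex I, split the clones. It was at 8.36 and 8.21 in S1 and at 8.53 and 8.34 in S5, but at 9.28 and 9.12 in S4. The untransfected line read 9.07 and 9.46 and the scrambled line 9.07 and 9.02. S1 and S5 were below all 4 control arrays, whereas S4 lay within their range. Relative to the control lines Ndufb8 fell by 0.87 in S1 (SE 0.13, limma adjusted p = 0.0109) and by 0.72 in S5 (SE 0.13, limma adjusted p = 0.0293), and the difference in S4 was 0.05 (95% interval -0.25 to 0.34). The call in S1 was lost when either S1 array was left out, and the call in S5 was lost on leaving out any array other than an untransfected one. The change over these fits, which have fewer degrees of freedom, stayed between -0.971 and -0.774 in S1 and between -0.814 and -0.617 in S5. An F test between the clones gave Ndufb8 a range of 0.92 with an unadjusted p of 0.000644 and an adjusted p of 0.394.

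The F test called 0 of 89 members and 0.0327% of all probe sets; Ndufb8 was the only member at an unadjusted p under 0.05 (1.12% of 89, beside 2.72% of all probe sets). The median range between clone means was 0.08 for the members and 0.1377 for all probe sets. Cox6a2 had the next widest range between clones, 0.54 (limma adjusted p = 1).

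Cox6a1 fell in S1 by 0.36 (SE 0.08, limma adjusted p = 0.0477) and in S4 by 0.42 (SE 0.08, limma adjusted p = 0.0305). In S5 the difference was -0.33 (SE 0.08, limma adjusted p = 0.079). The S1 call was kept in 1 of the 10 fits that each left out 1 array (untransfected passage 42), and the S4 call in 3 of 10 (either untransfected array, or scrambled passage 43). Its change stayed between -0.396 and -0.333 in S1 and between -0.455 and -0.392 in S4. Cox6a2 rose in S5 by 1.22 against the mean of the control lines (SE 0.25, limma adjusted p = 0.0491), yet both S5 arrays, 10.47 and 10.57, lay between the untransfected arrays. That call was lost on leaving out any 1 of the 10 arrays, while the change lay between 1.038 and 1.401.

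The scrambled line was then compared with the untransfected line. In the scrambled line 0 members rose and 3 fell relative to the untransfected line, 3.37% of 89, beside 6.10% of all probe sets. At an unadjusted p under 0.05 there were 16 members, 6 higher and 10 lower, which is 18% of 89 beside 22.5% of all probe sets. The median change was -0.09 over the members and 0 over all probe sets. It was -0.16 in complex I, where 30 of 36 members were lower in the scrambled line, and 0.03 in complex V, where 7 of 16 were lower. The shift was larger at passage 43 than at passage 42. At passage 42 the median member differed by 0.01, with 39 of 89 lower in the scrambled line, and the median of complex I was -0.05, with 22 of 36 lower. At passage 43 these medians were -0.18, with 66 of 89 lower, and -0.26, with 31 of 36 lower, and the median over all probe sets was 0 at each passage. When passage number was a replicate block in the fit, 5 of 89 members passed, beside 13.1% of all probe sets, the added ones being the complex I subunit Ndufa7 and the assembly factor Ndufaf3.

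Cox6a2 had the largest change among the 89 members in the comparisons made. It was 6.61-fold lower in the scrambled line, a log2 change of -2.72 (95% interval -3.40 to -2.05, limma adjusted p = 0.00287), and it passed in all 10 fits that left out 1 array. Of 13 tested stellate cell markers, 2 fell in the same line and 0 rose, beside 6.10% of all probe sets called. Smooth muscle actin, Acta2, was at a mean of 10.18 against 13.07 (log2 change -2.89, limma adjusted p = 0.000171), and Tagln, an actin-binding protein of smooth muscle, at 11.96 against 14.04 (-2.08, limma adjusted p = 0.00182). Des, a muscle-type intermediate filament protein, did not pass and was at 7.44 against 6.80. Among 9 striated muscle markers, Myog, a myogenic transcription factor, was the only one that passed, and it was higher in the scrambled line (log2 change 1.11, limma adjusted p = 0.0176). The summed intensity of the 9 ranged from 1190 to 2920 on the control arrays and from 944 to 3920 on the clone arrays. Whether these markers bear on Cox6a2 was not tested.

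Ndufv2, an iron-sulfur partner of Ndufv1, was at 12.00 and 12.32 in the untransfected line, 11.57 and 11.42 in the scrambled line and 11.67 to 11.78 on the clone arrays. The untransfected arrays were the highest and the scrambled arrays the lowest, without overlap. The change between the control lines was -0.67 (SE 0.12, limma adjusted p = 0.0225).

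Atp5if1 encodes the inhibitor that stops the ATP synthase from running backwards. It was at 11.86 and 12.19 in the untransfected line, 11.42 and 11.50 in the scrambled line and 11.29 to 11.55 on the clone arrays. The scrambled and clone arrays overlapped, and the untransfected line stood above both, with a change of -0.57 between the control lines (SE 0.12, limma adjusted p = 0.0396). Between the clones and both controls its change was -0.29 (95% interval -0.76 to 0.17).

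The calls of Ndufv2 and Atp5if1 were each kept in 1 of the 10 fits that left out an array, the one without untransfected passage 42. That fit called 14 of 89 members and 11.7% of all probe sets (3224), and each of the other 9 called Cox6a2 only, and 608 to 1017 probe sets. In the fit of 14, the untransfected line was represented by its passage 43 array, on which the median member stood 0.12 above its gene mean and 65 of 89 members were above it. The other 9 arrays had medians from -0.06 to 0.05.

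Promoters are shown for Cox6a2 and Ndufb8, the members with the clearest differences between lines, as RefSeq gives them on GRCr8, from 250 bases before to 50 bases after the annotated start. Capitals mark a match to any of 3 motifs known from promoters of respiratory chain genes, searched on both strands: NRF1 as GCGCANGCG, YY1 as AAGATGGCG and ETS as CCGGAAGT. The Cox6a2 window (chr1:192219667-192219966, minus strand) held no match, and the Ndufb8 window (chr1:253362887-253363186, minus strand) held 1 match to YY1, from base 272 of the 300.
Cox6a2: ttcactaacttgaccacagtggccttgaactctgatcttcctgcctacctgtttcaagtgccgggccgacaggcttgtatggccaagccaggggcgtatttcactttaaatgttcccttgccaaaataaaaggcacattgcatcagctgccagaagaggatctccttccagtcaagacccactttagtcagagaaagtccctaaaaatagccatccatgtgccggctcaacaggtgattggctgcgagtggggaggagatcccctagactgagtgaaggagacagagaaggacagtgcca
Ndufb8: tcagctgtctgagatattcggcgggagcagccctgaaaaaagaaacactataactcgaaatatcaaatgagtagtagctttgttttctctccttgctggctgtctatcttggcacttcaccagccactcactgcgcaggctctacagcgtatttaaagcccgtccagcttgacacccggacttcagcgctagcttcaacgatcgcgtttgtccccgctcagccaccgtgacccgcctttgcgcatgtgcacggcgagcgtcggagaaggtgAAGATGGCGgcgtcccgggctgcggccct

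Of the 90 members, 82 had a promoter in the table. The NRF1 letters were present in 25.6% of the 82 and in 5.80% of all 33469 promoters, the YY1 letters in 13.4% and 1.73%, and the ETS letters in 9.76% and 3.81%. The NRF1 share was 40% in complex V (15 promoters), 23.5% in complex I (34) and 7.69% in complex IV (13). Such a match is a description of the letters in this window.

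Passage was compared within lines, passage 43 minus passage 42 with line as a block, so that 5 differences entered. Of 89 members 2 rose at passage 43 and 0 fell (2.25%), against 5.52% of all probe sets; 14 members were at an unadjusted p under 0.05, 10 higher and 4 lower (15.7%, against 21.4%). The median change was 0.00 over the members and -0.0012 over all probe sets. It was 0.09 in complex IV, where 12 of 16 members had a positive change, and -0.16 in the 6 complex I assembly factors, where 5 had a negative one.

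Cox7a2l, a relative of subunit VIIa that takes part in assembling complexes III and IV into supercomplexes, rose. At passage 42 it was at 12.12, 11.83, 11.98, 12.20 and 11.99, and at passage 43 at 12.56, 12.25, 12.35, 12.47 and 12.53, in the untransfected, scrambled, S1, S4 and S5 lines. Every passage 43 array was above every passage 42 array. The change was 0.41 (SE 0.06, limma adjusted p = 0.0169), and the change between clones and controls was 0.06 (95% interval -0.23 to 0.36).

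Uqcrh was at 10.72, 10.93, 10.56, 10.55 and 10.60 at passage 42 and at 11.04, 11.07, 10.81, 10.82 and 10.94 at passage 43 in the same order of lines. It was higher at passage 43 in 5 of 5 lines, but the passages overlapped, since the scrambled line at passage 42 was above S1 and S4 at passage 43. The change was 0.26 (SE 0.06, limma adjusted p = 0.0499).

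Cox7a2l stayed past the threshold without the untransfected or without the scrambled line and was lost on leaving out S1, S4 or S5, and Uqcrh was lost on leaving out any 1 of the 5 lines. Over these fits the change stayed between 0.379 and 0.446 for Cox7a2l and between 0.239 and 0.289 for Uqcrh, and the fits without a clone called 0 of all 27520 probe sets. Without the line block 0 members passed, beside 0.567% of all probe sets. Ndufb4 also rose between passages with 32 added before log2 and with an intensity trend in the moderation.

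The promoter windows of both genes are given for comparison with those above. That of Cox7a2l (GRCr8, chr6:16936324-16936623, plus strand) held 1 match to NRF1, and that of Uqcrh (GRCr8, chr5:134790833-134791132, minus strand) 1 match to ETS, each on the opposite strand to the motif as written.
Cox7a2l: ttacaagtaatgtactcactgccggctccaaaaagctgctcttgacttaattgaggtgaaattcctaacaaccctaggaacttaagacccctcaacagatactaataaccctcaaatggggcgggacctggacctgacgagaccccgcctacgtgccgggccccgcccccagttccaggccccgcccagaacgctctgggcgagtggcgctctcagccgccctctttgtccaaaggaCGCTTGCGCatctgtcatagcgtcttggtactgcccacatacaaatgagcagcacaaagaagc
Uqcrh: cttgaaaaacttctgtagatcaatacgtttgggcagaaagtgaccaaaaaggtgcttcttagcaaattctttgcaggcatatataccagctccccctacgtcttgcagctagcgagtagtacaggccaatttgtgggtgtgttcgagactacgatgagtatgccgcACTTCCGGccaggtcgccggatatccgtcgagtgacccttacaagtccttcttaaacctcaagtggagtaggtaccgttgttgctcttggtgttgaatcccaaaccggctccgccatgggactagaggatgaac

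Altogether 11 members were higher at passage 43 in 5 of 5 lines (12.4%, against 9.57% of all probe sets) and 8 were lower in 5 of 5 (8.99%, against 11%). The 11 were Atp5f1e, Cox4i1, Cox7a2l, Cox7c, Ndufa1, Ndufa4l2, Ndufb11, Ndufb4, Sdha, Uqcr10 and Uqcrh. The 8 included the complex I assembly factors Ndufaf1, Ndufaf4 and Ndufaf5. Ndufaf4, picked out after its values were seen, was at 9.59, 9.80, 9.70, 9.72 and 9.71 at passage 42 and at 9.54, 9.35, 9.44, 9.30 and 9.32 at passage 43, in the untransfected, scrambled, S1, S4 and S5 lines. All passage 43 arrays were below all passage 42 arrays, by little in the untransfected line, and its change was -0.31 (SE 0.08, limma adjusted p = 0.0613).

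The lines did not move alike between passages. The median member changed by 0.13 in the untransfected line, with 62 of 89 higher at passage 43, and by -0.08 in the scrambled line, with 24 higher. It changed by 0.01 in S1, -0.03 in S4 and 0.07 in S5. Over all probe sets these medians were between -0.01 and 0. In complex I the median was 0.15 in the untransfected and -0.08 in the scrambled line, and in the complex I assembly factors it was 0.05 and -0.32. With 1 array per line and passage the difference between the 2 control lines could not be tested.

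**Figure D4:**
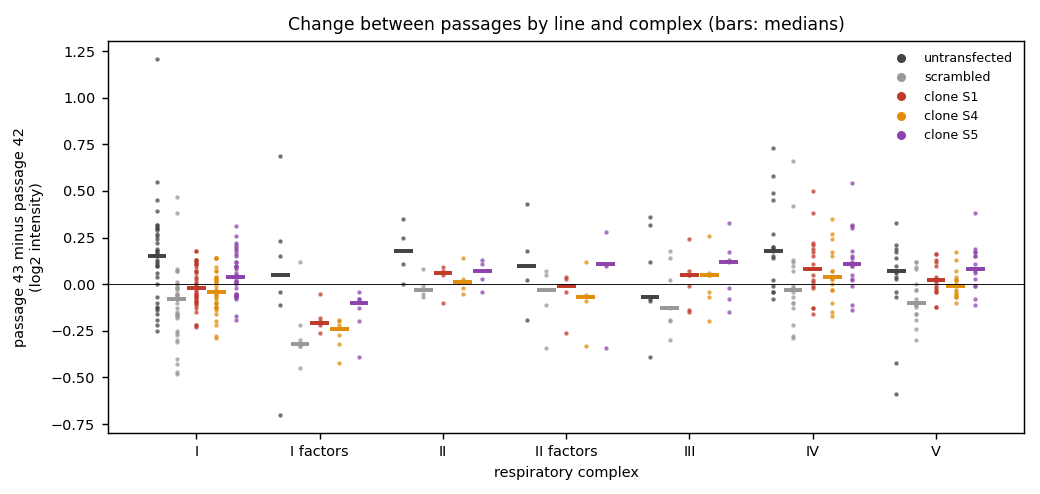
Change of each tested member from passage 42 to passage 43 (vertical axis, log2 intensity), by complex and line; horizontal bars are medians over the members of a complex. The untransfected line has the highest median in complexes I, II and IV, and all 5 complex I factor medians except that of the untransfected line (0.05) lie below 0.

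Whether the passage change differed between clones and control lines was tested on 5 differences. No member passed (0 of 89, limma), against 0.0182% of all probe sets, and 7 members were at an unadjusted p under 0.05 (7.87%, against 8.35%). Ndufa4l2 had the largest difference: its passage change was 1.21 in the untransfected and 0.47 in the scrambled line and 0.10 to 0.14 in the clones, a difference of -0.72 (SE 0.22, limma adjusted p = 0.496).

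Genes that work with the members were taken from lists of other respiratory chain genes, regulators of mitochondrial biogenesis, citric acid cycle and pyruvate dehydrogenase genes, and mitochondrial carriers. Between clones and controls none passed: 0 of 42, 0 of 23, 0 of 23 and 0 of 17, with 7, 2, 4 and 2 at an unadjusted p under 0.05, and median changes of -0.05, -0.10, -0.08 and 0.07 (limma). Of all probe sets, 0.898% passed in that comparison and 15.4% were at an unadjusted p under 0.05. None of the 13 mitochondrially encoded subunits was represented under its listed symbols.

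Between the control lines, 2 of 42 other respiratory chain genes fell in the scrambled line and 0 rose. They were Cox17, a copper chaperone of complex IV (log2 change -0.75, limma adjusted p = 0.0178), and Ttc19, a complex III factor (-0.75, limma adjusted p = 0.0354). Of 23 citric acid cycle and pyruvate dehydrogenase genes, 2 fell and 0 rose: Pdk1 (log2 change -0.69, limma adjusted p = 0.0301) and Pdk3 (-1.17, limma adjusted p = 0.0104), kinases that switch pyruvate dehydrogenase off. Of 17 carriers, Ckmt2, the mitochondrial creatine kinase of striated muscle, rose (0.62, limma adjusted p = 0.0173). Its log2 intensity was only 4.35 to 5.15 over the arrays, near the floor, which does not by itself show expression. Biogenesis regulators gave 0 of 23, with 4 at an unadjusted p under 0.05. Of all probe sets, 6.10% passed between the control lines and 22.5% were at an unadjusted p under 0.05.

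In single clones, the complex I factor Nubpl fell in S5 (log2 change -0.72, limma adjusted p = 0.0491). It was the only call among 42 other respiratory chain genes in S5, beside 2.97% of all probe sets. Pdha1, a subunit of pyruvate dehydrogenase, rose in S1 (0.55, limma adjusted p = 0.0304). It was the only call among the 23 genes of its list there, beside 3.84% of all probe sets. Between passages, Pdk2, a further pyruvate dehydrogenase kinase, rose (0.44, limma adjusted p = 0.0359), and Slc25a13, an aspartate-glutamate carrier, fell (-0.43, limma adjusted p = 0.0490). Each was the only call of its list, of 23 and 17 genes, beside 5.52% of all probe sets. Of 13 tested stellate cell markers, only Lum, a matrix proteoglycan, was called between passages (1.58, limma adjusted p = 0.0141). Whether it bears on any member was not tested. Against the mean of both control lines, Acta2 rose in S1 (0.71), S4 (0.98) and S5 (0.65), and Tagln in S4 (0.92). Their clone means, 12.41 and 13.66, lay between those of the scrambled and untransfected lines.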

How the data were processed

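Expression was measured on 10 Affymetrix arrays, 5 lines at 2 passages each. The authors deposited linear intensities with a floor of 20. Per the submitters' processing notes they used RMA, whose version is not given in the sources used here. Whether the table was converted back from log2 is not stated, so log2 of the deposited intensity was taken. A transcript below the floor has no order, and 14.6% of values were at it.

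The table holds 31099 probe sets. Leaving out 57 array controls and the 3522 that never rose above the floor left 27520 for testing. Symbols came from the platform annotation, and matching gene identifiers to the RefSeq table of GRCr8 changed 0 symbols and left 68 probe sets unmatched. The 7 probe sets with several symbols, such as those of Cox7a2 and Uqcrb, were not members.

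Models were fitted with limma (version 3.58.1, under R 4.3.3) and moderated by eBayes. P-values were adjusted by Benjamini-Hochberg over 27520 probe sets, with 0.05 as the threshold. Clones were compared with controls on 5 line means (3 residual degrees of freedom). Single clones, the control lines and differences between clones came from a model of all 10 arrays that gives each line its own mean (5 degrees), and passage with line as a block (4 degrees). The number of arrays limits the precision. The comparisons of clones with controls, of the control lines and of passages were run on simulated data with 200 changed probe sets. The simulation gave every probe set the same spread. Recovery of the larger changes was required for the control lines and for passage, but not for clones against controls. It therefore does not show how well that comparison detects a change. Passage deviations of the 10 pairs of lines correlated at 0.136 to 0.648 over probe sets, all above 0.1, so that passage numbers pair the arrays. The reported fits of single lines carry no passage term, and a fit with passage as a replicate block was an alternative.

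The members, lists, tests and alternatives were chosen with earlier results of these data known. Genes were named where they passed in a comparison, had the highest or lowest change of a complex between clones and controls, were isoform pairs, Sdh members or Atp5if1, or passed from another list. Further names, such as Ndufa7, Ndufaf3 and Ndufaf4, were chosen after their values were seen. Alternatives were quantile normalisation, an added offset, a filter on mean intensity, another probe set per gene, an intensity trend, passage or line blocks, 1 control line or 1 passage alone, and leaving out arrays or lines. The difference between control lines within each passage was added after seeing the data.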

Additional observations from a re-analysis of the deposited data

How the results depend on the processing

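The number of arrays limits the precision, and each fit that leaves out an array or a line has fewer degrees of freedom. Between clones and controls, the count of members past the threshold was 0 as reported. It was 1 with 32 added before log2. The count was 2 when line was a random block (correlation within lines 0.0485) and 2 with passage added as a replicate block (0.21). It was 7 against the scrambled line alone, 5 against the untransfected line alone, and 0 without any 1 clone. The median change of the members was -0.0746 against the untransfected line alone and -0.0315 to -0.0067 without 1 clone. For S1 the count was 1 with a mean intensity of at least 100, and for S5 it was 1 after quantile normalisation. Some calls changed under equal or similar counts: with 32 added S5 lost Cox6a2 (limma adjusted p = 0.0717) and gained Cox6a1. Between control lines quantile normalisation dropped Atp5if1 (0.0656) and gained Sdhd, and the probe set of largest variance dropped Atp5if1 (0.466). The count between control lines was 5 when passage was a replicate block, a block that changed no other call of a single-line comparison, and the passage count was 0 without the line block. Leaving out 1 array gave 0 to 4 members for S1, 0 to 2 for S4, 0 to 2 for S5, 1 to 14 between the control lines and 0 between clones. The highest of these counts for S1, S4, S5 and the control lines came without untransfected passage 42. That fit called the most of all 27520 probe sets: 1320, 1114, 1018 and 3224 in that order, beside 1058, 860, 818 and 1679 reported. Among the fits without 1 array, those that called fewer members than reported also called fewer probe sets. This did not hold for S5 after quantile normalisation, with 1 member and 830 probe sets called, beside 2 and 818 reported. Leaving out 1 line gave 0 to 3 members for passage, beside 0 to 1698 probe sets. For the difference in passage change between clones and controls it gave 0 members, beside 0 probe sets.

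Of the values for single members under an alternative, 391 kept their direction and side of the threshold, 69 kept the direction but were no longer past it, 11 came past it and 25 changed sign. The sign changes were all between clones and controls and, apart from Cox6a2, in members whose reported change lay between -0.08 and 0.11. After quantile normalisation Sdhb was at -0.048, and from the probe set of largest variance Sdhd was at 0.014. Against the scrambled line alone Cox4i1 was at 0.023, Cox4i2 at 0.012, Cox8a at 0.067 and Cox8b at 0.009. Against the untransfected line alone Cox6a2 was at -0.479, Sdhb at -0.107, Sdhd at 0.098, Cox7a2l at -0.086, Cox6b1 at 0.042, Sdhaf2 at -0.029 and Cox6b2 at -0.016. At passage 42 alone Cox4i2 was at 0.051, Cox6b2 at -0.091, Cox7a1 at 0.035, Cox8b at 0.049 and Sdhaf2 at -0.039, and at passage 43 alone Cox8a was at 0.099 and Sdhb at -0.042. Leaving out 1 clone gave -0.023 to 0.001 for Cox4i1, -0.125 to 0.049 for Cox4i2, -0.032 to 0.060 for Cox6b2, -0.149 to 0.012 for Cox7a1 and -0.087 to 0.011 for Cox8b. The causes were not tested.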

Other observations

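Of the members, 10 have further probe sets, 11 in all, and none of these passed in any comparison. The second probe set of Ndufa9 was at the floor on all 10 arrays. For Atp5if1, whose main probe set passed between the control lines, the 2 further probe sets changed there by 0.02 and -0.29. The second probe set of Sdhd changed by 0.42 between the control lines (limma adjusted p = 0.0937), where the main one changed by 0.29. The 7 probe sets that carry several symbols did not pass between clones and controls either. Among them, the probe set of Cox7a2, the liver form of subunit VIIa, and its near copy Cox7a2l2 changed by -0.13 between clones and controls and by 0.37 between the control lines (limma adjusted p = 0.0748). It read 12.18 and 12.04 in the untransfected line, 12.52 and 12.44 in the scrambled line and 12.11 to 12.26 on the clone arrays, so the scrambled arrays were the highest, as they were for Cox6a1. These probe sets were picked out after their values were seen.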
